A study of Mus musculus with 8 samples.

Results

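The genes described here are the clustered replication histone genes of the mouse, taken as every gene whose symbol begins with Hist1h, Hist2h, Hist3h or Hist4h and that reached at least 1 TPM (transcripts per 1000000, a relative measure of transcript abundance) in at least 1 library. Of the 48709 genes in the expression table, 70 carried such a name and 58 of them reached 1 TPM. The 58 comprised 5 genes of the linker histone H1 and, of the core histones, 17 genes of H2A, 16 of H2B, 10 of H3 and 10 of H4. The Hist1 cluster on chromosome 13 held 50 of them, the Hist2 cluster on chromosome 3 held 6 and the Hist3 cluster on chromosome 11 held 2.

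Polyadenylated RNA of untreated bone marrow cells was sequenced in 8 libraries, 1 each of MDP and Ly6Clo monocytes and 2 each of cMoP, Upf2 knockout Ly6Chi monocytes and control Ly6Chi monocytes. MDP give rise to cMoP, the committed progenitor of monocytes, the 2 monocyte classes are named for a high or low level of Ly6C on the cell surface, and Upf2 is a core factor of nonsense-mediated decay. The labels call all groups other than the knockout wild type, describe the cMoP and control Ly6Chi libraries also as FL_FL, and name no deleter for the knockout, no age and no number of animals. They give bone marrow as the source, followed here, but a monocytic cell line as the cell type.

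Replication histone genes are transcribed mainly in S phase, when new DNA must be packed into nucleosomes. Their typical mRNA has no intron and no poly(A) tail; it ends a few bases after a stem-loop that is bound by the stem-loop binding protein, encoded by Slbp, and cut with the help of the U7 small nuclear ribonucleoprotein. The same protein supports translation of the mRNA, and its rapid decay at the end of S phase needs Upf1. Some of these genes can also make a longer, polyadenylated mRNA from a poly(A) signal downstream of the stem-loop, a form known from differentiated and non-dividing cells. A library made from polyadenylated RNA therefore holds a part of the histone mRNA, and the values below describe that part.

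The stem-loops are shown first because they define this gene family. In GENCODE release M21 (GRCm38, the same assembly as mm10), a 16-base histone stem-loop with at least 15 matching positions was present in an annotated transcript of 40 of the 58 genes (69%), against 0.568% of 21834 other protein-coding genes. All 16 positions matched in 38 of them. In the following sequences, read 5′ to 3′ on the transcript strand, capitals mark the stem-loop and small letters 5 flanking bases or as many as the transcript holds.
Hist1h1c: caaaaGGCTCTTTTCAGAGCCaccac
Hist3h2a: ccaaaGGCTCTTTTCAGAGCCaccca
Hist3h2ba: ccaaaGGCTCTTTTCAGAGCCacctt
Hist1h3g: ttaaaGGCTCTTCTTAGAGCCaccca
Hist1h3c: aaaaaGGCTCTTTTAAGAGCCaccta
Hist1h2bk: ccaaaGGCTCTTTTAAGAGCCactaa
Hist1h2ap: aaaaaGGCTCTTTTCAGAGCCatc
Hist1h4i: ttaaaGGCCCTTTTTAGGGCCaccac
Hist1h4a: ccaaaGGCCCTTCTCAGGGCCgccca
Hist1h4b: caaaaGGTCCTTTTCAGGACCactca
The form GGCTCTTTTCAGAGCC was the most frequent, in 3 genes of H1, 10 of H2A, 8 of H2B and 3 of H3. No H4 gene carried it. The commonest form in H4 was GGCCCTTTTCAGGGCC, in 5 genes, and Hist1h4b and Hist1h4j carried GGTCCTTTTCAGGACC with 15 of 16 positions matching. For the other 18 genes the annotated transcripts hold no such match, and 10 of the 58 are annotated as coding sequence alone, with no 3′ UTR to hold one.

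A poly(A) signal (AATAAA or ATTAAA) stood in the last 50 bases of an annotated transcript of 12 of the 58 genes (20.7%), against 78% of the other protein-coding genes. Of these 12 genes, 9 have single-exon transcripts only. The signals of the genes on which the results below turn are given next, with the signal in capitals.
Hist1h4i: ggttctgtttacATTAAAagtattctatgc
Hist1h4a: agaaattgagtaAATAAAccttgagtgcct
Hist1h1c: gtgtatgcttctAATAAAaagcgtttagtt
Hist3h2a: aggtatatgcccAATAAAataagagtacgt
Hist3h2ba: cataatggtattAATAAAtttggttcaatt
Hist2h2be: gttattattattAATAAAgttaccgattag
In Hist1h4i the transcript runs on for 330 bases after the stem-loop, in Hist1h1c for 840, in Hist3h2a for 1643 and in Hist3h2ba for 169. In Hist1h2bk and Hist1h3g, which have no annotated signal, it ends 30 and 47 bases after the stem-loop. A match is a feature of the annotation and says nothing of which 3′ end was used in these cells.

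The 58 genes together made up between 0.0169% (cMoP replicate 2) and 0.0331% (cMoP replicate 1) of all TPM. Their TPM summed to 279.6 in MDP, 330.5 and 169.4 in cMoP, 290.6 and 285.3 in the Upf2 knockout, 274.7 and 266.5 in control Ly6Chi and 201.5 in Ly6Clo. The cMoP replicates were the highest and the lowest of all 8 libraries, so the sums gave no order of the groups beyond that spread. In a bulk sample, fewer cells with the transcript and less transcript per cell cannot be told apart. Most members were low: mean TPM over the 8 libraries was at least 10 in 5 genes, between 1 and 10 in 46 and below 1 in 7, and 24 genes had at least 1 TPM in every library. Nearest above the threshold by their highest value were Hist1h4j (1.26 TPM), Hist1h4a (1.39) and Hist1h2bf (1.51), and nearest below it were Hist3h2bb-ps (0.92), Hist1h2br (0.9) and Hist2h4 (0.87). Of the 12 genes that did not reach 1 TPM, 3 were listed at 0 in all libraries.

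**Figure D1:**
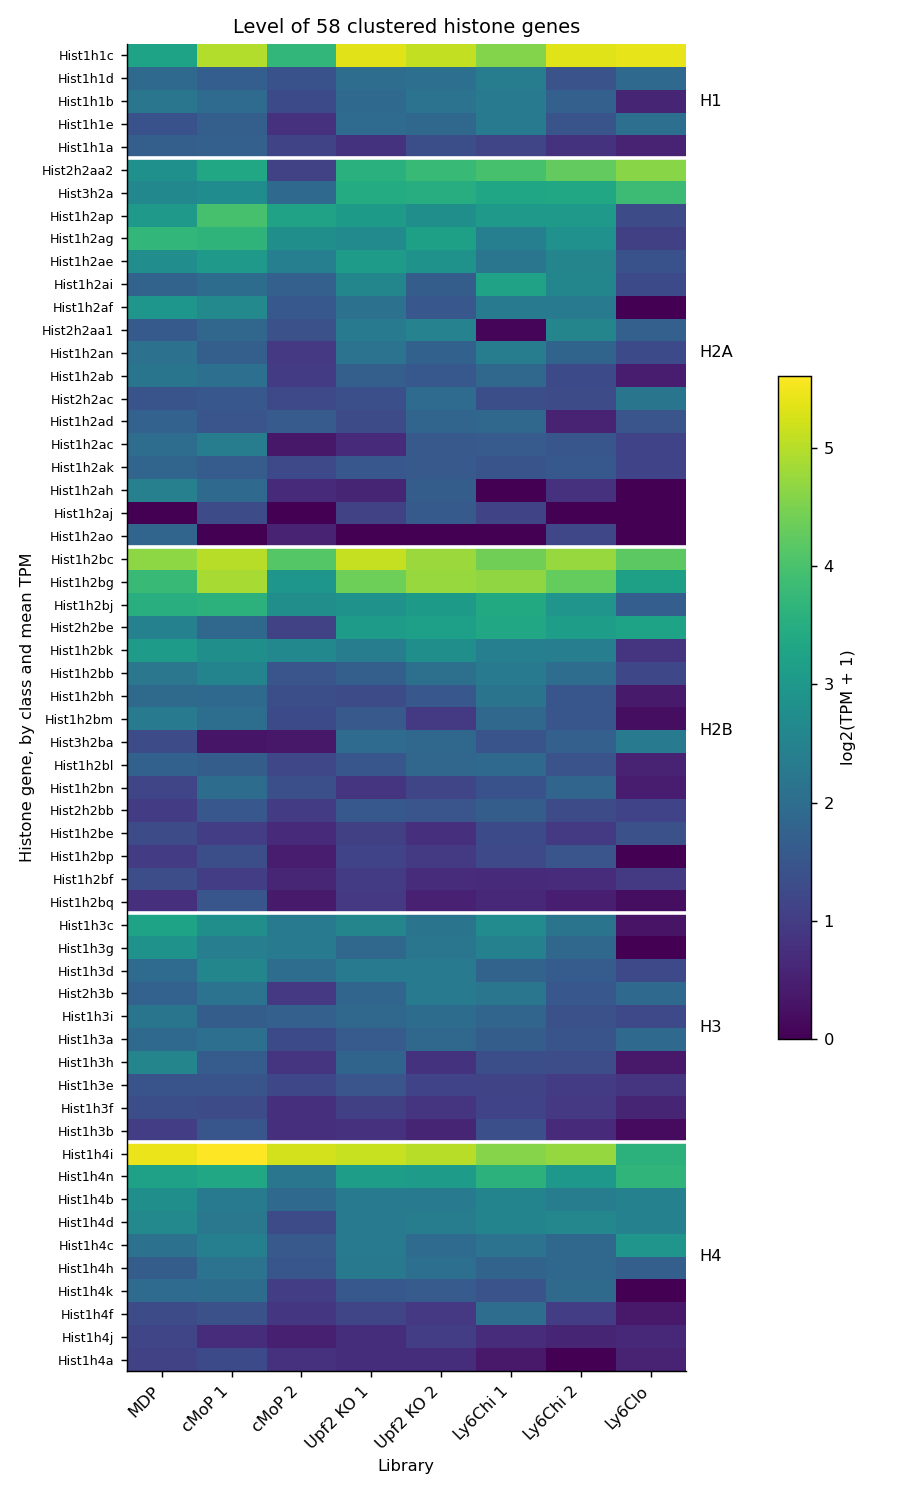
Level of each of the 58 histone genes, as log2(TPM + 1) in colour, in the 8 libraries, with genes grouped by histone class and ordered by mean TPM within it. Hist1h4i, Hist1h1c and Hist1h2bc are the brightest rows, and several rows of H2A, H2B and H3 are dark in Ly6Clo alone.

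The libraries behind these values held between 28925018 (Ly6Clo) and 37833159 (cMoP replicate 2) spliced reads in the intron tables, while the expression table keeps no counts, so the depth behind a single TPM value is unknown. Genes at 1 TPM or more numbered between 11106 in cMoP replicate 2 and 12635 in MDP. Over genes with at least 6 introns, spliced reads leaned to the 3′ end by a median log2 ratio of 0.80 in cMoP replicate 2, 0.58 in cMoP replicate 1, 0.77 and 0.57 in the Upf2 knockout, 0.37 and 0.43 in control Ly6Chi, 0.40 in MDP and 0.40 in Ly6Clo. Whether this lean moves histone TPM was not tested. Checked against its markers, each label had genes highest in its own libraries, but not every list did. Flt3, of MDP, had 197 TPM there and at most 10.3 in every other library, while the 5 MDP markers together summed to 913.8 TPM in MDP and to 2248 in Ly6Clo, where Csf1r and Cx3cr1 of that list were highest. Elane, of the cMoP list, had 5617 and 4842 TPM in cMoP, Fn1 3061 and 2444 in control Ly6Chi with 1957 and 2084 in the Upf2 knockout, and Ace 1164 in Ly6Clo. Upf2 itself stood at 20.4 and 22.5 TPM in the Upf2 knockout, against 20.2 and 18.2 in control Ly6Chi, so the gene level did not show the knockout. Reads joining its exons 2 and 3 numbered 10 and 13 in the Upf2 knockout, against 41 and 45 in control Ly6Chi. They numbered 16 in cMoP replicate 2, the library with the strongest 3′ lean, and between 38 and 59 in the other libraries. The knockout libraries were thus the lowest, but cMoP replicate 2 lay close to them. Counts this small carry counting error, so the junction does not clearly set the knockout apart from that library. Copies of a histone class are near-identical: 22 members had under 50% of their 100-base stretches to themselves among annotated transcripts, 11 had at least 90%, and reads from shared stretches can be assigned to a relative. Markers of other cell types were present: the 6 neutrophil markers summed to 1382 TPM in Ly6Clo, against 441 and 587 in control Ly6Chi, and to between 94.9 and 619.8 in the other libraries. The 7 erythroid markers summed to 312.8 TPM in Ly6Clo and to between 3.26 and 187.8 in the other libraries, and the 6 B and plasma cell markers to between 265.7 and 773.5, of which Ighm alone gave between 229 and 699. The 5 T and NK cell markers summed to at most 1.67. Their part in the histone values was not tested.

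The make-up of the polyadenylated histone RNA differed between the libraries, of which MDP and Ly6Clo had a single one each. Genes of H1, the linker histone that binds DNA where it enters and leaves the nucleosome, took 6.72% of the summed TPM in MDP, 12.1% and 10.04% in cMoP, 16.9% and 15.3% in the Upf2 knockout, 13.1% and 17.1% in control Ly6Chi and 23.7% in Ly6Clo. Genes of H3, a core histone, took 12.7% in MDP, 9.35% and 11.4% in cMoP, 8.54% and 8.38% in the Upf2 knockout, 9.59% and 6.56% in control Ly6Chi and 5.07% in Ly6Clo. The H1 share was therefore lowest in MDP and highest in Ly6Clo, and the H3 share the reverse, with control Ly6Chi and cMoP overlapping for H3. The Hist1 cluster gave 91.4% of the summed TPM in MDP, 91.7% and 94% in cMoP, 85.8% and 83.5% in the Upf2 knockout, 84.7% and 82.3% in control Ly6Chi and 70.7% in Ly6Clo. The 8 genes of the other clusters made up the rest: Hist2 gave 20.8% and Hist3 8.60% in Ly6Clo, against 6.30% and 2.35% in MDP. Genes with an annotated poly(A) signal gave 42% of the summed TPM in Ly6Clo, against 27.6% and 35.6% in control Ly6Chi. They gave 26.9% in MDP, 31.4% and 36% in cMoP and 37.9% and 34.5% in the Upf2 knockout. Their own sum was 84.6 TPM in Ly6Clo, of which Hist1h1c gave 40.9, against 75.9 and 94.9 in control Ly6Chi. These shares are descriptions and were not tested.

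**Figure D2:**
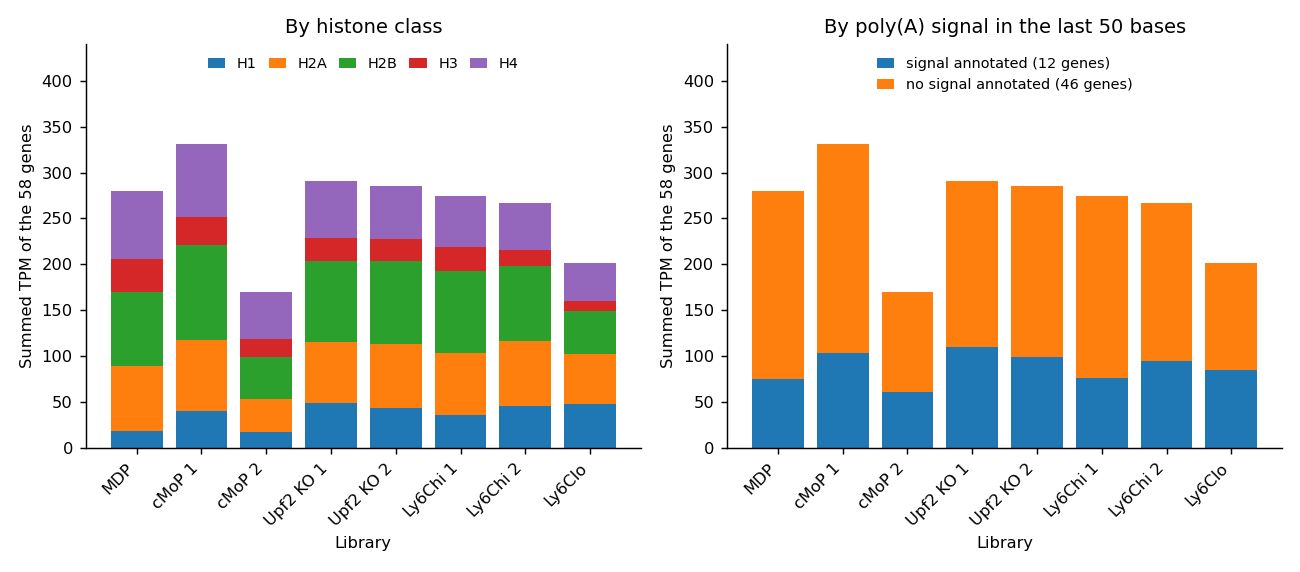
Summed TPM of the 58 genes in each library as stacked bars from 0, by histone class (left) and by whether a poly(A) signal is annotated in the last 50 bases (right). The sum runs from 169.4 in cMoP replicate 2 to 330.5 in cMoP replicate 1, and the part without an annotated signal is 116.9 in Ly6Clo, against 198.8 and 171.6 in control Ly6Chi.

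The H1 class was carried by Hist1h1c, which encodes the H1 subtype H1.2 and had the second highest mean of all members, 28.3 TPM. It had 8.47 TPM in MDP, 30.4 and 12.01 in cMoP, 39.6 and 33.0 in the Upf2 knockout, 22.6 and 39.1 in control Ly6Chi and 40.9 in Ly6Clo. MDP was the lowest library, and the cMoP and control Ly6Chi libraries overlapped. The other 4 H1 genes stayed between 0.47 and 4.18 TPM: Hist1h1b, which encodes H1.5 and is annotated as coding sequence alone, had 0.5 TPM in Ly6Clo, against 3.85 and 2.30 in control Ly6Chi, and Hist1h1d, which encodes H1.3, had 2.80 TPM in Ly6Clo, against 4.18 and 1.69 in control Ly6Chi. The highest member of all was Hist1h4i (chr13:22040636-22041362, minus strand), one of several genes for the same H4 protein, with a mean of 31.4 TPM.

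The next H2B and H4 genes by mean were not called in any of the 5 comparisons. Hist1h2bg, an H2B gene, had 12.96 TPM in MDP, 28.4 and 6.72 in cMoP, 19.7 and 25.7 in the Upf2 knockout, 24.4 and 18.4 in control Ly6Chi and 8.08 in Ly6Clo. Hist1h2bj, another H2B gene, had 10.5 TPM in MDP, 11.1 and 5.81 in cMoP, 6.31 and 7.32 in the Upf2 knockout, 9.66 and 6.64 in control Ly6Chi and 2.21 in Ly6Clo. In Hist1h2bj the Ly6Clo library was below all 7 others, and in Hist1h2bg it was above only cMoP replicate 2. Of the H4 genes, Hist1h4n had 11.7 TPM in Ly6Clo, against 11.2 and 6.99 in control Ly6Chi, and Hist1h4b 4.48 TPM in Ly6Clo, against 4.81 and 4.12 in control Ly6Chi, and in neither was Ly6Clo the lowest library.

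Differences between groups were tested with limma on log2(TPM + 1) over the 13126 genes that reached 1 TPM in 2 or more libraries, with p-values adjusted over all of them by Benjamini-Hochberg and called at under 0.05. Log2 differences are on that scale, where the added 1 shrinks the change of a low gene. Each is given relative to the median gene of its comparison, which itself lay at -0.28 (cMoP over MDP), 0.19 (Ly6Chi over cMoP), 0.04 (Ly6Clo over Ly6Chi), -0.12 (knockout over Ly6Chi) and -0.14 (Ly6Chi over MDP). The p-values belong to the difference before that shift. Of the 58 members 57 were tested; Hist1h2bq, which reached 1 TPM only in cMoP replicate 1 (1.83 TPM), was not. A single library stands for MDP and for Ly6Clo, and the fit assumes that it varies as the replicated groups do. The labels do not give separate animals for the replicates, so the p-values rest on the spread between these samples alone, which may be technical. The median standard error of a member was 0.32 for comparisons of 2 with 2 libraries, against 0.20 over all genes tested, and 0.39 against 0.25 where 1 group had 1 library, so a change of given size was less easily called in a histone gene than in most genes.

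In the step from MDP to cMoP no histone gene was called, of 57 tested, while 3.87% of all genes were. At an unadjusted p under 0.05, 6 members of 57 were lower in cMoP and none higher. Over all 13126 genes tested, 3532 had such a p. The smallest adjusted p, 0.0813 by limma, belonged to Hist3h2ba, an H2B gene of the Hist3 cluster. It had 0.25 and 0.29 TPM in cMoP and 1.42 in MDP, a log2 difference of -0.65 ± 0.22 (SE). Hist2h2be, an H2B gene of the Hist2 cluster, had 2.68 and 1.11 TPM in cMoP and 4.52 in MDP (-0.70 ± 0.36, adjusted p = 0.166 by limma). Both cMoP libraries lay below MDP in both genes. Over the 57 members the median was -0.04, with 26 above the median gene and 31 below it. Without cMoP replicate 1, the comparison rests on the low cMoP replicate 2, and the calls rose both in the members and over all genes. Leaving out cMoP replicate 2 brought no such rise in the members.

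From cMoP to control Ly6Chi monocytes, 5 histone genes were called and went in both directions: Hist2h2be, Hist3h2ba and Hist3h2a were higher in Ly6Chi, and Hist1h4i and Hist1h4a lower. Hist2h2be (chr3:96221119-96223738, plus strand) had 9.33 and 7.68 TPM in Ly6Chi, against 2.68 and 1.11 in cMoP. That is a ratio of means of 4.49 and a log2 difference of 1.57 ± 0.30 (adjusted p = 0.00485 by limma). The groups did not overlap, and the Ly6Clo library, at 8.53 TPM, lay between the Ly6Chi replicates.

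Hist3h2ba (chr11:58948920-58949533, plus strand) had 1.76 and 2.29 TPM in Ly6Chi and 0.25 and 0.29 in cMoP, a log2 difference of 1.05 ± 0.18 (adjusted p = 0.00284 by limma). Hist3h2a (chr11:58954685-58956830, plus strand), the H2A gene of the same cluster, had 8.77 and 9.31 TPM in Ly6Chi and 5.63 and 2.78 in cMoP (0.81 ± 0.29, adjusted p = 0.0285 by limma). The long 3′ end annotated for Hist3h2a shares sequence with Trim17, so 70.2% of its 100-base stretches are its own; Trim17 itself stood between 0.07 and 0.33 TPM. All Ly6Chi libraries of the 3 genes lay above all cMoP libraries. All 3 have an annotated poly(A) signal, and Hist2h2be and Hist3h2ba share little or no sequence with relatives, 100% and 95.1% of their stretches being unique.

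Hist1h4i had 23.1 and 25.4 TPM in Ly6Chi, against 47.7 and 36.2 in cMoP, a ratio of means of 0.577 and a log2 difference of -0.95 ± 0.18 (adjusted p = 0.0149 by limma). Hist1h4a, another H4 gene, was low, listed at 0.3 and 0 TPM in Ly6Chi and at 1.39 and 0.75 in cMoP (-1.04 ± 0.23, adjusted p = 0.0243 by limma). It reached 1 TPM in 2 libraries only, MDP and cMoP replicate 1, so it entered the test through the groups where it was high, which favoured a lower value in Ly6Chi, and with no filter on low genes it was not called (adjusted p = 0.0598 by limma). Both lower genes are H4 genes of the Hist1 cluster with an annotated poly(A) signal, 84.9% and 68.2% of whose 100-base stretches are their own. Hist1h4i continued in the same direction in Ly6Clo and was also lower in Ly6Chi than in MDP, as given further on.

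The 5 called members were 8.77% of the 57 tested, where 55.5% of all genes were called, 32.3% higher and 23.3% lower, so the share of histone genes lay under this background. The difference between the shares was not tested, and the standard error of a histone gene was the larger. With the settings given above, all 5 were among the 11 tested genes with an annotated poly(A) signal, a share of 45.5% against the 55.5% of all genes, and none was among the 46 without one. That split changed with the setting: median centring called 6 genes with a signal and 6 without, and quantile normalisation 6 and 5. The median log2 difference was 0.07 in the 11 genes and -0.15 in the 46. In the 46, the smallest adjusted p was 0.0546 by limma, for Hist1h2ai, an H2A gene annotated as coding sequence alone, with 8.39 and 4.98 TPM in Ly6Chi and 2.93 and 2.28 in cMoP.

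The scaling of the libraries bears on this count. Centring every library on its median gene gave 3 higher and 9 lower members, and quantile normalisation 3 higher and 8 lower. Of all genes, 59.55% and 61.85% were called under these 2 settings. Hist2h2be and Hist3h2ba were called under all 14 alternative settings, Hist1h4i under 12, Hist1h4a under 9 and Hist3h2a under 8. Leaving out a cMoP replicate raised the count, and leaving out a Ly6Chi replicate lowered it. The direction of the calls changed as well. Without cMoP replicate 1 the called members were mostly higher in Ly6Chi, and without cMoP replicate 2 they went both ways. Under median centring and quantile normalisation they were mostly lower. The share of all genes called rose without cMoP replicate 1 and fell without cMoP replicate 2 or either Ly6Chi replicate. The neutrophil markers summed to 441 and 587 TPM in Ly6Chi, against 122.7 and 94.92 in cMoP, and 5 of 6 were called higher. Their part in these differences was not tested.

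**Figure D3:**
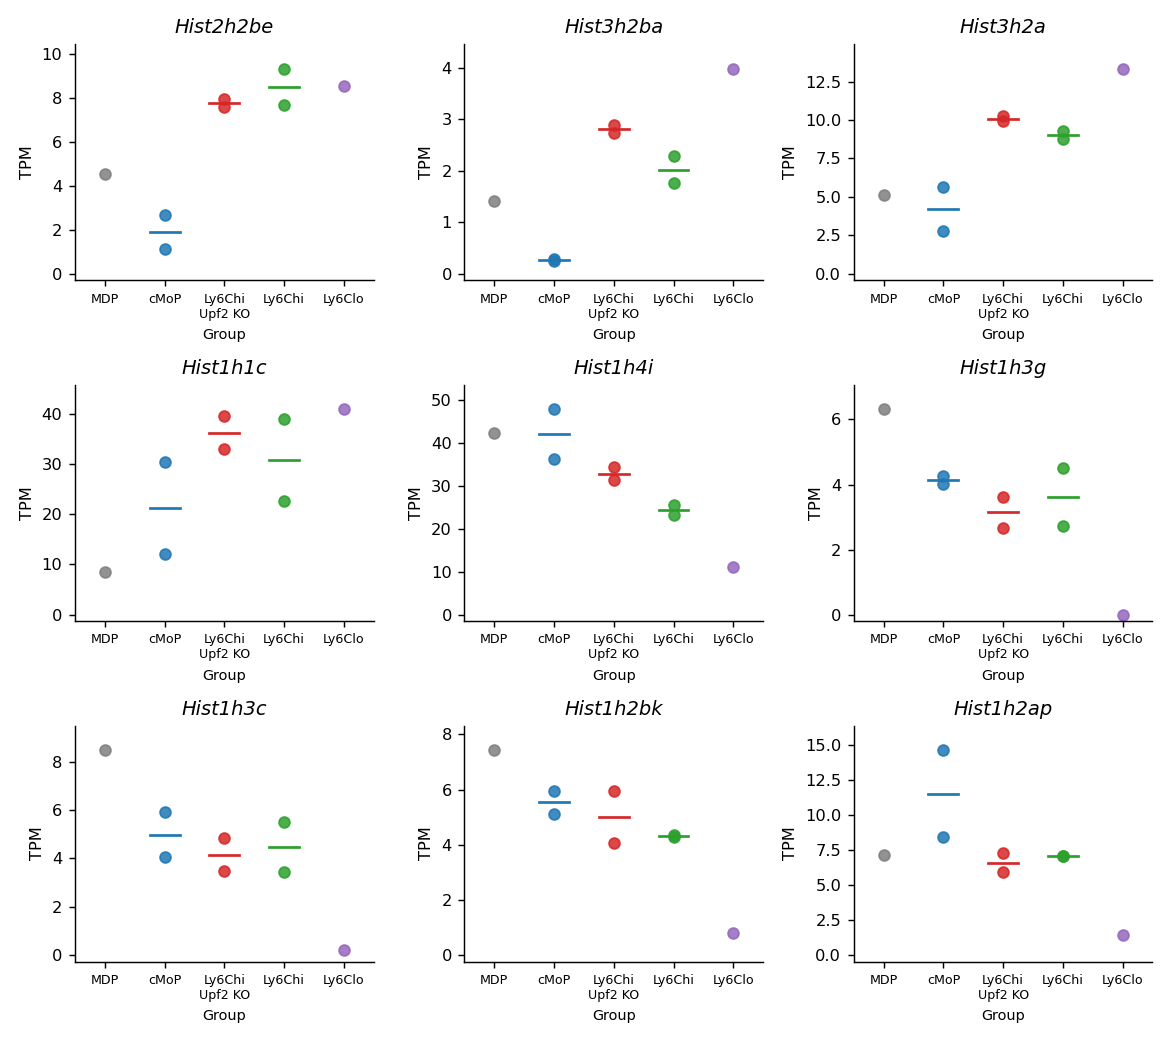
TPM of 9 histone genes in each library (points), by group, with a line at the mean of 2 replicates and each axis starting near 0. Hist2h2be, Hist3h2ba and Hist3h2a have both Ly6Chi points above both cMoP points, Hist1h4i steps down towards Ly6Clo at 11.1 TPM, and the last 4 genes are lowest in Ly6Clo.

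An H2A pair of the Hist2 cluster followed the same direction without a call. Hist2h2aa1 and Hist2h2aa2 are annotated copies of which Hist2h2aa2 has no 100-base stretch of its own and Hist2h2aa1 has 11.7%. Reads can therefore be split between them arbitrarily, and their sum is given. Both also share stretches with other H2A genes, so the sum can hold reads of those relatives. The sum was 14.8 and 23.1 TPM in Ly6Chi, against 11.7 and 2.74 in cMoP, and 25.8 in Ly6Clo. Taken alone, Hist2h2aa2 had a log2 difference of 1.72 ± 0.69 between Ly6Chi and cMoP (adjusted p = 0.057 by limma), and Hist2h2aa1 was listed at 0.05 TPM in Ly6Chi replicate 1 and at 4.87 in replicate 2, a split that the sum removes.

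From Ly6Chi to Ly6Clo monocytes the histone genes called were all lower, 6 of 57 (10.5%), where 13% of all genes were called, 5.9% higher and 7.12% lower. The share of members called lower was near that background, but the count moved with the scaling, to 15 under median centring and 16 under quantile normalisation, all lower, where 16.1% and 19.9% of all genes were called. It was 10 with a pseudocount of 0.1 and 13, of which 12 lower, when the compared groups alone were fitted. Of all genes, 10.9% and 25.1% were called under these settings. The median log2 difference of the 57 members was -0.48, with 42 genes below the median gene and 15 above. At an unadjusted p under 0.05, 18 members of 57 were lower and 2 higher. Over all 13126 genes tested, 3719 had such a p. For 35 members the Ly6Clo library lay below both Ly6Chi libraries, and for 11 above both. The share over all genes is not given here, and a single library often lies outside 2 others without a difference. No result about histone genes is read from these counts. The marker sums of other cell types were also highest in the Ly6Clo library, those of neutrophils and erythroid cells as given above and those of B and plasma cells at 773.5 TPM in Ly6Clo, against 524.7 and 532.6 in Ly6Chi. Of the B and plasma cell markers 2 of 4 tested were called higher in Ly6Clo, and of the neutrophil and erythroid markers none of 6 and none of 4. Among the neutrophil markers 1 was called lower in Ly6Clo. Their part in these differences was not tested.

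Of the 6 genes, 5 were core histone genes of the Hist1 cluster with a short annotated 3′ end and no annotated poly(A) signal. Hist1h3g (chr13:23535422-23535951, plus strand), an H3 gene, was listed at 0 TPM in Ly6Clo and at 4.5 and 2.73 in Ly6Chi, with 2.66 and 3.62 in the knockout (adjusted p = 0.00918 by limma). Hist1h3c (chr13:23744973-23745602, minus strand), another H3 gene, had 0.23 TPM in Ly6Clo, against 5.52 and 3.43 in Ly6Chi, a log2 difference of -2.16 ± 0.35 (adjusted p = 0.0156 by limma). No other library had under 2.66 TPM of Hist1h3g or under 3.43 of Hist1h3c. Of their 100-base stretches, 62.9% of Hist1h3g and 71.6% of Hist1h3c were their own.

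Hist1h2bk, an H2B gene of which 29.2% is its own, had 0.82 TPM in Ly6Clo, against 4.35 and 4.28 in Ly6Chi (-1.58 ± 0.26, adjusted p = 0.0174 by limma). Hist1h2ap, an H2A gene that has only 7.83% of its 100-base stretches to itself, had 1.46 TPM in Ly6Clo, against 7.06 and 7.08 in Ly6Chi (-1.75 ± 0.34, adjusted p = 0.0271 by limma). Hist1h2af, an H2A gene of which 34.7% is its own, was listed at 0 TPM in Ly6Clo and at 4.07 and 3.89 in Ly6Chi (adjusted p = 0.0345 by limma). In each of these genes the single Ly6Clo library was below all 7 others.

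Hist1h4i was the only called member with an annotated poly(A) signal, at 11.1 TPM in Ly6Clo and 23.1 and 25.4 in Ly6Chi (-1.09 ± 0.22, adjusted p = 0.0306 by limma). Called were thus 1 of the 11 tested genes with a signal (9.09%) and 5 of the 46 without one (10.9%). The median log2 difference was -0.03 over the 11 genes with an annotated signal and -0.56 over the 46 without one. It was -1.07 over the 10 genes annotated as coding sequence alone, all 10 of which were below the median gene and in none of which the change was called; their TPM summed to 8.16 in Ly6Clo, against 30.4 and 23.3 in Ly6Chi. By class the median was -1.15 in H2B, -0.62 in H2A, -0.50 in H3, -0.09 in H4 and -0.01 in H1. By cluster it was -0.63 over 49 genes of Hist1, all 6 called genes among them, 0.19 over 6 genes of Hist2 and 0.58 over 2 genes of Hist3. Hist3h2ba, with 3.99 TPM in Ly6Clo and 1.76 and 2.29 in Ly6Chi (0.69 ± 0.22, adjusted p = 0.0874 by limma), and Hist3h2a, with 13.3 TPM in Ly6Clo and 8.77 and 9.31 in Ly6Chi (0.48 ± 0.35, adjusted p = 0.402 by limma), were highest in the library of the Ly6Clo monocytes but were not called. No test compared these subsets with each other.

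The count of called genes also changed when a library was left out. It fell without a Ly6Chi or knockout replicate and rose without a cMoP replicate, and so did the share of all genes called. Hist1h3g was called under all 13 alternative settings, Hist1h3c under 12 and Hist1h2bk under 11, against 9 for Hist1h4i and 8 for Hist1h2ap and Hist1h2af.

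**Figure D4:**
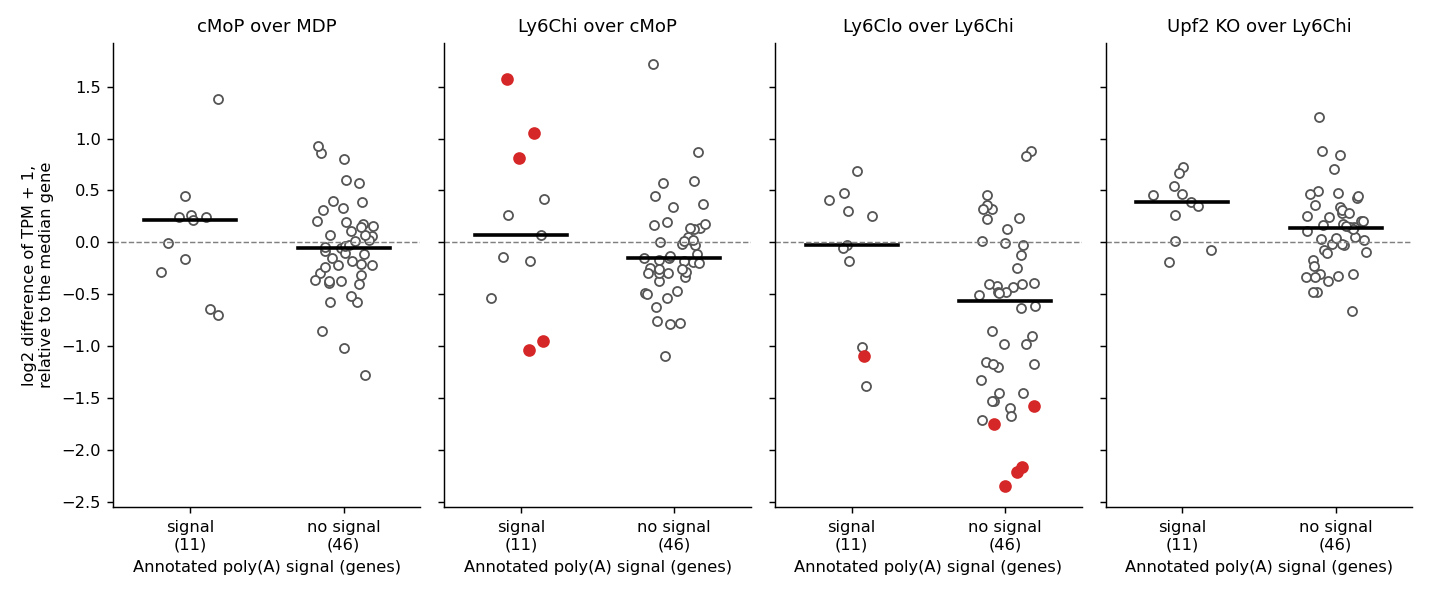
Log2 difference of TPM + 1 relative to the median gene (dashed line at 0) for the 57 tested genes in 4 comparisons, split by an annotated poly(A) signal, with filled red points for genes called by limma at an adjusted p under 0.05 and a bar at each median. With these settings the 5 called genes in Ly6Chi over cMoP all have a signal. In Ly6Clo over Ly6Chi 5 of the 6 called genes have none, as have 46 of the 57 tested genes.

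Across the whole path from MDP to Ly6Chi, 2 of 57 members were called, Hist1h4i and Hist1h4a, both lower, where 43.8% of all genes were called, 18.2% higher and 25.6% lower. This comparison shares the Ly6Chi libraries with those above and is no independent support for them. Hist1h4i had 23.1 and 25.4 TPM in Ly6Chi and 42.2 in MDP (-0.64 ± 0.22, adjusted p = 0.0323 by limma), and Hist1h4a had 0.3 and 0 TPM in Ly6Chi and 1.11 in MDP (adjusted p = 0.0474 by limma). Hist1h4a entered this test through its values in MDP and cMoP replicate 1, as above, and with no filter its adjusted p was 0.0793 by limma. Hist1h1c had the largest positive difference tied to its 22.6 and 39.1 TPM in Ly6Chi and 8.47 in MDP, 1.84 ± 0.56, which was not called (adjusted p = 0.0541 by limma). Median centring gave 3 higher and 4 lower members and quantile normalisation 4 higher and 4 lower, where 45.2% and 52% of all genes were called. Fewer members were called without Ly6Chi replicate 1 or either knockout replicate, and more without either cMoP replicate. The share of all genes called moved in the same directions.

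In Upf2 knockout Ly6Chi monocytes, no histone gene of 57 was called against control Ly6Chi by limma, where 0.00762% of all genes, which is 1 gene, was called. At an unadjusted p under 0.05 stood 1 member of 57, where 1910 of all 13126 genes tested did. This member was Hist1h3d, an H3 gene with a long annotated 3′ UTR. It had 3.94 and 3.96 TPM in the Upf2 knockout and 2.47 and 2.12 in control Ly6Chi (0.71 ± 0.24, adjusted p = 0.342 by limma). Relative to the median gene 38 members were higher in the Upf2 knockout and 19 lower, with a median of 0.16. The median was 0.39 over the 11 genes with an annotated poly(A) signal, 9 of them positive, and 0.14 over the 46 without one. For Hist1h4i the knockout had 34.2 and 31.3 TPM, against 23.1 and 25.4 in control Ly6Chi, and for Hist1h1c 39.6 and 33.0, against 22.6 and 39.1. None of these passed the test, which does not show that the groups were alike.

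Among the most abundant members, Hist1h2bc was the one whose annotated transcript is spliced. This H2B gene lies at chr13:23684199-23692908 (mm10, plus strand) and its 1156-base transcript has an intron of 7554 bases, chr13:23684622-23692175, that begins 9 bases after the stop codon and so lies in the 3′ UTR. The spliced transcript holds no stem-loop match. The junction is shown because it is the sequence that a spliced read must cross, with the last 15 bases of exon 1 in capitals and the first 15 of exon 2 in small letters.
Hist1h2bc: AAGTGATCCTGCCAAgaggagcagacctga
Such reads were found in every library. They numbered 115 in MDP, 189 and 130 in cMoP, 224 and 131 in the Upf2 knockout, 99 and 128 in control Ly6Chi and 71 in Ly6Clo. Per 1000000 spliced reads of the library, MDP had 3.95 of them, with 5.12 and 3.44 in cMoP, 6.82 and 4.17 in the Upf2 knockout, 3.15 and 3.74 in control Ly6Chi and 2.45 in Ly6Clo. Ly6Clo was the lowest library and knockout replicate 1 the highest, and the knockout replicates differed by more than the lower of them differed from control Ly6Chi. Reads across the exon-intron boundaries were fewer, 18 and 13 in the Upf2 knockout, 12 and 12 in control Ly6Chi and 4 in Ly6Clo, with 17 in MDP and 45 and 14 in cMoP.

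The level of Hist1h2bc stood at 24.1 TPM in MDP, 31.2 and 16.4 in cMoP, 33.6 and 26.3 in the Upf2 knockout, 19.9 and 25.8 in control Ly6Chi and 17.2 in Ly6Clo. The gene was not called in any of the 5 comparisons, and its largest log2 difference among the tests above was 0.50 ± 0.33 in the knockout over control Ly6Chi (adjusted p = 0.56 by limma). Of its 100-base stretches 74.6% were unique. Introns of 2 further H2B genes were listed, with at most 3 spliced reads in any library for Hist1h2bp and at most 1 at exactly the listed ends for Hist1h2be.

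**Figure D5:**
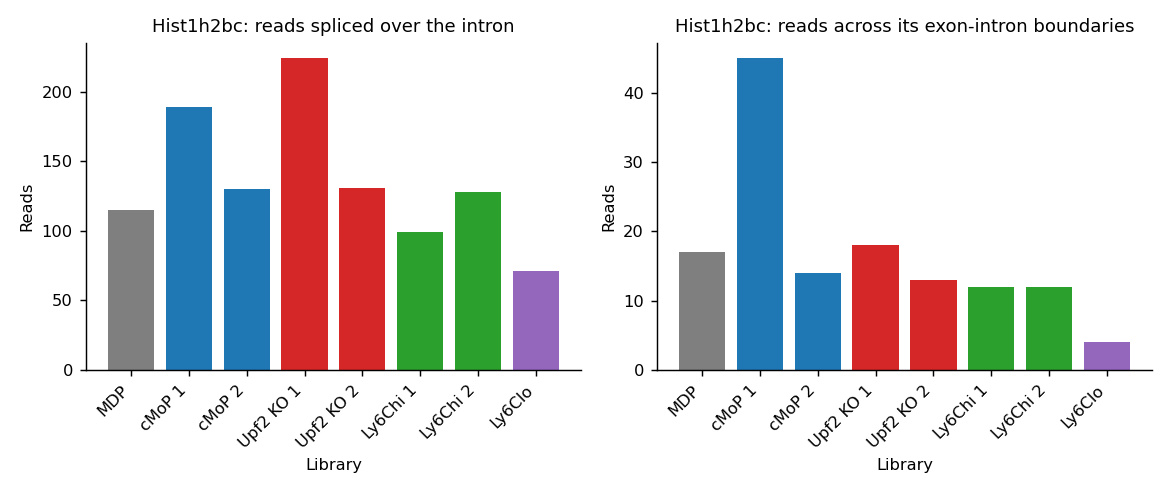
Reads of Hist1h2bc in each library, as bars from 0, spliced over its 3′ UTR intron (left) and across the boundaries of that intron (right). Spliced reads run from 71 in Ly6Clo to 224 in knockout replicate 1 and outnumber boundary reads in every library.

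Genes that act with the replication histones were read from the same fit, with lists chosen when earlier results of these data were known. Their counts in Ly6Chi over cMoP stand against the 32.3% of all genes called higher and 23.3% called lower, and those in Ly6Clo over Ly6Chi against 5.9% and 7.12%. The DNA replication list of 38 genes, such as Mcm6 of the replicative helicase and Pcna, the sliding clamp, had no called gene in cMoP over MDP. In Ly6Chi all 38 were lower than in cMoP. Mcm6 had 96.2 and 91.3 TPM in Ly6Chi, against 339 and 341 in cMoP (-2.04 ± 0.10, adjusted p = 0.000211 by limma), and the list summed to 2096 and 1997 TPM in Ly6Chi, against 4984 and 4943 in cMoP. In Ly6Clo 28 of the 38 were lower than in Ly6Chi, with a sum of 820.5 TPM. Rrm2, a subunit of the enzyme that makes deoxyribonucleotides, had 7.38 TPM in Ly6Clo, against 119 and 112 in Ly6Chi.

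The 19 mitosis genes took another course. In Ly6Chi 3 were higher and 1 lower than in cMoP, and the sums of 2078 and 1953 TPM in Ly6Chi were close to the 1912 and 1910 in cMoP. In Ly6Clo all 19 were lower than in Ly6Chi, and the sum was 125 TPM. Top2a, a topoisomerase of dividing cells, had 16.5 TPM in Ly6Clo, against 291 and 286 in Ly6Chi. Over the 8 libraries the summed histone TPM ran from 169.4 to 330.5, against 820.5 to 5310 for the DNA replication list and 125 to 2399 for the mitosis list. Of 176 genes for RNAs that have no poly(A) tail of their own, 124 were listed at 0 in all libraries, and the list summed to between 141.6 and 316.3 TPM. A listed 0 need not be a low level, since 1 of 2 entries of Rn7sk, an RNA in general use, was at 0 throughout while the other had between 4.18 and 48.7 TPM.

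Of 19 genes for histone gene transcription and 3′ processing, 10 were lower and 2 higher in Ly6Chi than in cMoP, and 2 were lower in Ly6Clo than in Ly6Chi. Slbp, which binds the stem-loop, was among them in both steps: it had 56.1 TPM in Ly6Clo, 93.7 and 93.9 in Ly6Chi and 141 and 138 in cMoP, with log2 differences of -0.77 ± 0.13 in Ly6Clo over Ly6Chi (adjusted p = 0.0184 by limma) and -0.76 ± 0.10 in Ly6Chi over cMoP (adjusted p = 0.00662 by limma). Snrpg, a protein of the ring shared by U7 and spliceosomal ribonucleoproteins, had 161 and 159 TPM in Ly6Chi, against 322 and 414 in cMoP. Of 9 genes of histone mRNA decay 3 were higher in Ly6Chi than in cMoP, a share near that of all genes. One of them was Zcchc6, a terminal uridylyltransferase, with 53.0 and 46.2 TPM in Ly6Chi and 18.1 and 9.42 in cMoP, while Upf1, a helicase of histone mRNA decay and of nonsense-mediated decay, had 48.9 and 44.2 TPM in Ly6Chi and 47.1 and 44.7 in cMoP.

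Histone chaperones, which carry histones to and from DNA, fell for the most part, 14 of 21 being lower and 2 higher in Ly6Chi than in cMoP. The chaperone Npm1 had 514 and 479 TPM in Ly6Chi, against 1719 and 3050 in cMoP. Of the 11 histone genes expressed outside replication, 3 were higher and 2 lower in Ly6Chi than in cMoP, near the shares of all genes, and 4 were lower in Ly6Clo than in Ly6Chi. H1f0, the linker histone of non-dividing cells, had 88.2 and 60.8 TPM in Ly6Chi, against 17 and 12.37 in cMoP (2.06 ± 0.24, adjusted p = 0.00112 by limma). H3f3a, which encodes H3.3, had 2367 and 2410 TPM in Ly6Chi, against 1203 and 897 in cMoP (1.01 ± 0.16, adjusted p = 0.00214 by limma), and H2afz, which encodes H2A.Z, had 403 TPM in Ly6Clo, against 1139 and 1240 in Ly6Chi. None of the genes in these lists was called in the knockout. The 11 summed to 3856 TPM in Ly6Clo and 4486 to 6593 in the other libraries, against 201.5 TPM for the 58 clustered genes in Ly6Clo and at most 330.5 elsewhere.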

How the data were processed

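Poly(A)-enriched, strand-specific libraries of 100-base read pairs were made from all 8 samples, per the labels' protocols. The submitters' processing notes name RSEM, STAR 2.5.2a, Trimmomatic and FastQC, and both a mouse build (mm10) and a human one; neither settings nor annotation release are given. The authors deposited 1 expression table, named for FPKM, whose columns sum to between 999999 and 1000000, so its values were taken as TPM and the test planned for either unit was used. The deposited intron tables, whose program is not named, hold whole-number counts of spliced and boundary reads, a coverage signal and a retention fraction; the counts alone were used, with the deposited coverage and fraction left aside. Intervals for single read counts are not given, and such counts carry counting error.

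Samples were grouped by the labels. Expression was fitted with limma 3.58.1 in R 4.3.3 (lmFit, eBayes with trend) on log2(TPM + 1), all 8 libraries and 5 groups together, with 3 residual degrees of freedom, and the code was tested on simulated data. Alternatives were a pseudocount of 0.1, other filters, median centring, quantile normalisation, no trend, the compared groups only, a replicate block, and leaving out each replicate. Stem-loops and poly(A) signals were searched on the transcript strand in GENCODE M21 transcripts, and uniqueness is the share of 100-base stretches found in no other gene. The IDs of 2 members differ from that release and were matched by symbol. Named genes are the 3 of highest mean per histone class, up to 6 called in each direction per comparison, the 3 nearest each side of the threshold and the 4 of highest mean in each other list; genes named outside this rule (Hist2h2aa1, Hist1h2ai, Slbp, H1f0, Rrm2 and the single cell type markers) were chosen after their values were seen. Members and lists were chosen with earlier results of these data known, and the split by poly(A) signal was made after the values were seen.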

Additional observations from a re-analysis of the deposited data

How the results depend on the processing

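Counts of called members moved with the setting. Under median centring they were 12 in Ly6Chi over cMoP, 15 in Ly6Clo over Ly6Chi and 7 in Ly6Chi over MDP. Of all genes, 59.55%, 16.1% and 45.2% were called there. Quantile normalisation gave 11, 16 and 8, against 61.85%, 19.9% and 52% of all genes, and 1 in cMoP over MDP, against 6.65%. A pseudocount of 0.1 gave 10 in Ly6Clo over Ly6Chi and 1 in Ly6Chi over MDP, where 10.9% and 40.5% of all genes were called. No filter gave 3 in Ly6Chi over cMoP and 0 in Ly6Chi over MDP, where 26.2% and 29.3% of all genes were called. A filter of 1 TPM in 1 library gave 1 in cMoP over MDP, against 6.23% of all genes. Fitting the compared groups alone gave 13 in both Ly6Clo over Ly6Chi and Ly6Chi over MDP, where 25.1% and 58.7% of all genes were called. Leaving out 1 replicate gave 0 to 7 in cMoP over MDP, 3 to 12 in Ly6Chi over cMoP, 1 to 17 in Ly6Clo over Ly6Chi, 0 to 9 in Ly6Chi over MDP and 0 throughout in the knockout. Outside the knockout, the highest count of each range came where the share of all genes called was also highest among these fits. The ranges therefore do not describe the histone genes alone. The causes were not tested. Deviations of same-numbered replicates correlated at 0.06, -0.14 and -0.13, so the numbers were not taken as pairing. With a replicate block 7 members were called in Ly6Chi over cMoP, where 48.2% of all genes were, and 0 in the knockout. The crossed pairing, added after seeing the data, also gave 0 in the knockout. Over the members named by the rule above and the alternative settings, 1396 results kept their side of the threshold. Of the rest, 59 passed it anew and 41 no longer passed. Results that were not called could change sign. For Hist1h2bg the mean of cMoP lay above MDP (12.96 TPM), but cMoP replicate 2 alone (6.72 TPM) lay below it. TPM carries no depth, which limits genes near 1 TPM.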
